A study of Mus musculus with 8 samples.

Results

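Ligands and receptors of the tumour necrosis factor (TNF) superfamily were examined in intraepithelial lymphocytes (IELs), the T cells that sit among the epithelial cells lining the gut, after these cells had been activated in the living mouse. The members are 10 genes, picked by symbol from a table of 25230 genes: the ligand genes Tnfsf14, Tnfsf10, Tnfsf8, Tnfsf11, Fasl and Cd40lg, and the receptor genes Tnfrsf9, Tnfrsf4, Tnfrsf18 and Tnfrsf1b. Tnf, Lta and Ltb lie outside that choice and are given only for comparison. All 10 members were in the table and all 10 passed the filter on low counts.

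Each of the 8 mice, of strain C57BL/6J, was injected intraperitoneally with 35 µg of an antibody to CD3, which activates T cells through their antigen receptor complex, so no group shows the cells without that stimulus. The PBS group (4 mice) received anti-CD3 and PBS, and the Ex4 group (4 mice) received anti-CD3 and 10 nmol/kg of exendin-4, a peptide that activates the GLP-1 receptor. IELs were recovered 3 hours later by Percoll separation and sorting on CD45, a surface protein of all leukocytes, which does not separate T cells from other leukocytes. Age, sex, litter, cage and day are not stated in the labels. The comparison asks how exendin-4 altered gene expression in IELs under anti-CD3.

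TNF superfamily ligands are mostly trimers held in the cell membrane, and many are also shed. Their receptors fall into those with a cytoplasmic death domain, which can start apoptosis through FADD and caspase 8, and those that recruit TRAF adaptors and activate NF-kappaB and survival genes. On T cells the antigen receptor induces several members of both kinds within hours, so they serve as short-lived signals that prolong, direct or end a response, and gut IELs use Fas ligand and TRAIL as part of their cytotoxic equipment. Exendin-4 acts on a receptor that raises cyclic AMP, which is why the binding motif of CREB, the cyclic AMP response element (CRE), was looked for in the promoters shown here beside motifs of factors downstream of the antigen receptor (AP-1, NFAT and NF-kappaB).

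Values are in CPM, for which each gene count is scaled by library size and TMM factor, and 4 values in a row belong to replicates 1 to 4 of a group. Values after ± are SDs over the 4 mice of a group unless an SE is named. Library totals ran from 13386889 counts in Ex4 4 to 31843413 in Ex4 3, so members at a few CPM rest on as few as 22 counts. Genes detected at the depth of Ex4 4 ran from 16122.8 in PBS 2 to 19087 in Ex4 4. PBS 1 stood apart from its group, with a mean chi-square per gene of 61.9 to 82.7 to the other PBS libraries. All other pairs of libraries within a group were at 22.1 to 47.7. Among the members PBS 1 was the lowest library for Tnfrsf4, Tnfrsf9 and Fasl and the highest for Tnfsf14 and Tnfsf8. For the other members it was at neither end. Cd3e was at 581.3 to 1061 CPM and Cd8a at 952.8 to 2074 CPM over the 8 libraries, while Epcam, an epithelial gene, was at 97.39 to 183.9 and Csf1r, a macrophage gene, at 4.209 to 14.77 CPM. None of the 9 marker lists had a gene past the edgeR test.

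No member passed the test of exendin-4 against PBS. In the edgeR quasi-likelihood test with Benjamini-Hochberg adjustment over 14691 genes, 0 of the 10 members had an adjusted p under 0.05, where 2 genes of all those tested did (0.0136%). DESeq2 and limma-voom also called 0 members, though DESeq2 gave no adjusted p for Tnfsf11 and Cd40lg. At an unadjusted p under 0.05 in edgeR, 3 members had a lower mean in Ex4, all of them ligands (Tnfsf14, Tnfsf10 and Tnfsf8), beside 3.9% of all genes in that direction. In the other direction there were 0 members at an unadjusted p under 0.05, beside 3.71% of all genes. Every Ex4 library lay below every PBS library for 1 member, Tnfsf14, beside 2.66% of all genes, and above it for 0 members, beside 2.29% of all genes. The members were chosen with earlier results of these data known, in which Tnfsf14 and Tnfsf10 already stood out. These counts may therefore be partly set by that choice and are no test of the members as a set. The median log2 fold change was -0.19 over the 6 ligands, 0.02 over the 4 receptors and 0.02 over all genes tested, and 5% of all genes lay below -0.58 and 5% above 0.81. These genes were measured in a mixed population, in which fewer cells of a type and less RNA per cell cannot be told apart.

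**Figure D1:**
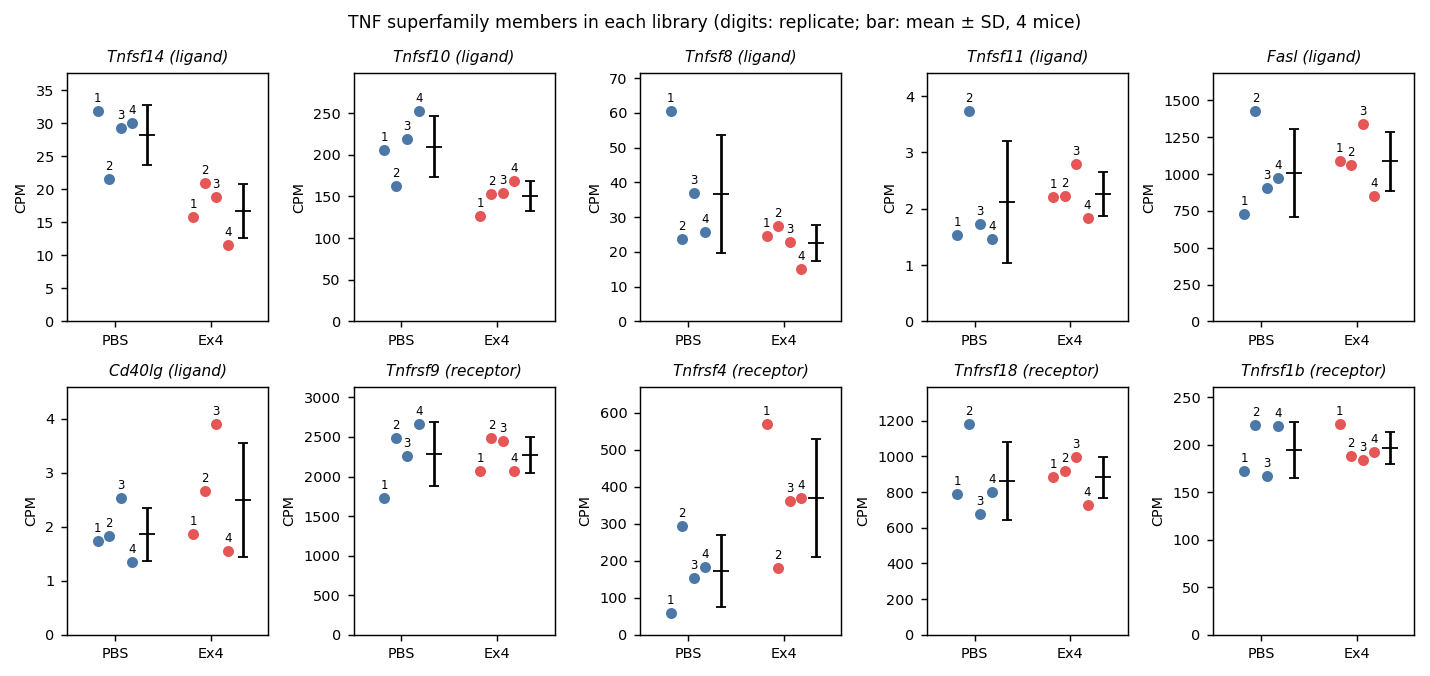
CPM of each member (linear vertical axis from 0) in the 4 PBS and 4 Ex4 libraries; digits give the replicate, and bars the mean ± SD of 4 mice. Tnfsf14 is the member whose groups do not overlap, with 21.53 CPM in the lowest PBS library and 20.92 in the highest Ex4 library; Tnfrsf4 has the widest spread relative to its mean, from 60.05 to 568.6 CPM.

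Tnfsf14 encodes LIGHT, a ligand of the herpesvirus entry mediator HVEM (Tnfrsf14) and of the lymphotoxin beta receptor (Ltbr) that costimulates T cells and acts on stromal and epithelial cells. It was at 31.85, 21.53, 29.33 and 30.04 CPM with PBS and at 15.77, 20.92, 18.83 and 11.54 CPM with exendin-4. All Ex4 libraries were therefore below all PBS libraries, but PBS 2 and Ex4 2 differed by little, and Ex4 4, the shallowest library, was the lowest. The means were 28.19 ± 4.56 and 16.77 ± 4.08 CPM, and the log2 fold change was -0.74 (SE 0.21, 95% interval -1.18 to -0.31), with an edgeR adjusted p of 0.37. An exact two-sided permutation test of this gene alone gave p = 0.0286, the smallest value that 4 against 4 libraries can give, and 10 such tests were made, 1 per member. With upper quartile scaling or total counts in place of TMM the groups overlapped and 0 members were fully separated. The log2 fold change stayed between -0.92 and -0.62 over 21 other settings, with adjusted p from 0.0693 (DESeq2) to 0.737. Cd8a, which marks most IELs, was also separated in these libraries, at 1363 to 2074 CPM with PBS and 952.8 to 1219 CPM with exendin-4 (log2 fold change -0.59, edgeR adjusted p = 0.351), and so was Epcam, at 145.7 to 183.9 and 97.39 to 144.2 CPM (-0.36, edgeR adjusted p = 0.557). The T cell markers did not share this direction: 6 of 6 had a log2 fold change above 0, and 0 passed the test. Their summed level was 4287 to 5352 CPM in PBS and 4994 to 5959 CPM in Ex4, which overlap. Of the 9 markers of natural IELs 5 were above 0 and 4 below, none was at 0 in all libraries, and their summed level was 49161 to 74376 CPM in PBS and 65698 to 78992 CPM in Ex4. That list includes the granzyme genes Gzma and Gzmb, and Cd8a was only a small part of the sum. The sum is therefore no measure of the share of IELs. With the mean log2 CPM of the epithelial markers (epithelial score) as a covariate, the log2 fold change of Tnfsf14 was -0.71 (edgeR adjusted p = 0.405). This covariate covers epithelial markers alone and no type of leukocyte. The part of a change in cell makeup in the values of Tnfsf14 was not tested.

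The gene lies on the minus strand of chromosome 17 from 57189492 to 57194177, in coordinates of GRCm38 (mm10). Its promoter is shown because it is the only member promoter, apart from the second of Tnfrsf9, that held an AP-1 motif. The window runs from 250 bases before to 50 bases after the start in RefSeq (GRCm38.p6, chr17:57194132-57194431, minus strand, written 5′ to 3′ in the direction of the gene), with the AP-1 motif, 160 to 154 bases before the start, in capitals.
Tnfsf14 promoter: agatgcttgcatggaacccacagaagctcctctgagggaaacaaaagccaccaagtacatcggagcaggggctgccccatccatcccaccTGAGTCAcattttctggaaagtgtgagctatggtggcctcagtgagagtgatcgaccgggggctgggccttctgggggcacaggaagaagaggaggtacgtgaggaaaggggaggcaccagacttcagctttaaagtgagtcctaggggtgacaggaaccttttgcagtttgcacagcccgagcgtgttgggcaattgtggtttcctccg
AP-1 was searched as TGANTCA on both strands and was present in 7.81% of 32851 RefSeq windows of this length. The window also held 4 matches to the NFAT core (GGAAA, either strand), the highest number in a single member window, although 61.34% of all windows held at least 1. It held neither a CRE (TGACGTCA, 1.79% of windows) nor a CRE core (TGACG, 20.81% of windows).

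Tnfsf10 encodes TRAIL, a ligand that kills through a death receptor, in the mouse the product of Tnfrsf10b. With PBS it was at 205.9, 162.5, 219.0 and 252.5 CPM, and with exendin-4 at 126.4, 152.5, 154.6 and 168.6 CPM. PBS 2 was below Ex4 4, and the other 3 PBS libraries were above all Ex4 libraries. Means were 210.0 ± 37.2 and 150.5 ± 17.6 CPM, a log2 fold change of -0.48 (SE 0.15, 95% interval -0.80 to -0.16) with an edgeR adjusted p of 0.432 and an exact permutation p of 0.0571. The value ran from -0.60 without PBS 2 to -0.40 without PBS 4, and without either PBS 2 or Ex4 4 the groups did not overlap. Tnfsf10 lies on the plus strand of chromosome 3 from 27317028 to 27342427. Its promoter is shown because it and that of Fasl were the only member promoters with a CRE core, here at 76 to 72 bases before the start and in capitals, as CGTCA, the other strand of TGACG (RefSeq, GRCm38.p6, chr3:27316827-27317126, plus strand, 5′ to 3′).
Tnfsf10 promoter: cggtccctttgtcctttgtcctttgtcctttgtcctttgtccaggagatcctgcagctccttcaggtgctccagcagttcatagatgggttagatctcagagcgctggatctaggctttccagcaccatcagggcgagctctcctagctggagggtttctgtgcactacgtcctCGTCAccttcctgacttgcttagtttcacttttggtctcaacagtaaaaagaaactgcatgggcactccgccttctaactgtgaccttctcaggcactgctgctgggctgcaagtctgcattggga
No member promoter held the full CRE, and the CRE core alone was in 20.81% of all windows.

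Tnfsf8 encodes CD30 ligand, which binds CD30 (Tnfrsf8) on activated lymphocytes. It was at 60.49, 23.65, 36.82 and 25.65 CPM with PBS and at 24.46, 27.54, 22.73 and 15.22 CPM with exendin-4. PBS 1 stood well above the other 7 libraries, and the remaining PBS values overlapped those of Ex4. The log2 fold change was -0.70 (SE 0.28, 95% interval -1.31 to -0.09; edgeR adjusted p = 0.566, exact permutation p = 0.171), and without PBS 1 it was -0.36. PBS 1 was also the highest library for Ltb, which encodes the membrane-bound lymphotoxin beta, at 470.5 CPM against 67.84 to 175.7 CPM in the other 7 libraries. The log2 fold change of Ltb, -1.24 (SE 0.44, edgeR adjusted p = 0.556), became -0.67 without PBS 1.

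Fasl encodes Fas ligand, the death ligand of cytotoxic lymphocytes, and was the most abundant member ligand. It was at 731.2, 1427, 905.5 and 971.9 CPM with PBS and at 1091, 1060, 1339 and 854.0 CPM with exendin-4. The highest and the lowest library were both in the PBS group, and the Ex4 values lay entirely within the PBS range. Means were 1009 ± 297 and 1086 ± 199 CPM, with a log2 fold change of 0.11 (SE 0.20, 95% interval -0.31 to 0.53; edgeR adjusted p = 0.941, exact permutation p = 0.6). That interval spans a linear fold of 0.804 to 1.44. The sign turned without PBS 1 (-0.03) and without Ex4 3 (-0.03). Fasl lies on the minus strand of chromosome 1 from 161780689 to 161788495. Its promoter is shown as that of the most abundant ligand, with the CRE core at 48 to 44 bases before the start in capitals, again as CGTCA (RefSeq, GRCm38.p6, chr1:161788446-161788745, minus strand, written 5′ to 3′ in the direction of the gene).
Fasl promoter: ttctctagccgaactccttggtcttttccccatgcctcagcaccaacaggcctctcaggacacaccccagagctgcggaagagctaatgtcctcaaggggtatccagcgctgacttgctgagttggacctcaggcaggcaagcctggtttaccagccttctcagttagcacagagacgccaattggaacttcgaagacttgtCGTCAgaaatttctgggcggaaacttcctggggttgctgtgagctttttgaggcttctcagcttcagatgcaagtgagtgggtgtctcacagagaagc
It held 2 NFAT cores and no AP-1 motif.

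Tnfsf11 and Cd40lg, which encode RANK ligand and CD40 ligand, were the least abundant members. RANK ligand is known for its action on osteoclasts and on the epithelium over lymphoid follicles, and CD40 ligand is the main signal of helper T cells to B cells and dendritic cells. Tnfsf11 was at 1.54, 3.734, 1.737 and 1.463 CPM with PBS and at 2.215, 2.22, 2.794 and 1.84 CPM with exendin-4, from 26 to 90 counts per library. PBS 2 was the highest library for Tnfsf11, and the other 3 PBS libraries were below every Ex4 library. Its log2 fold change of 0.10 (SE 0.48, 95% interval -0.92 to 1.11; edgeR adjusted p = 0.98) became 0.51 without PBS 2 and fell below 0 in 4 of the 8 fits with 1 library left out. Cd40lg was at 1.732, 1.826, 2.531 and 1.35 CPM with PBS and at 1.861, 2.671, 3.898 and 1.557 CPM with exendin-4, from 22 to 113 counts. Ex4 2 and Ex4 3 were above all PBS libraries, and Ex4 1 and Ex4 4 were inside the PBS range. Its log2 fold change was 0.43 (SE 0.48, 95% interval -0.59 to 1.44; edgeR adjusted p = 0.887), and 0.11 without Ex4 3. On the linear scale the intervals span a fold of 0.529 to 2.16 for Tnfsf11 and 0.667 to 2.72 for Cd40lg. Tnfsf11 lies on chromosome 14 from 78277445 to 78308043 and Cd40lg on chromosome X from 57212143 to 57224042.

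Tnfrsf9 encodes 4-1BB (CD137), a TRAF-coupled costimulatory receptor that T cells display soon after activation. It ranked 21 of 14691 genes by mean CPM. Its values were 1730, 2481, 2257 and 2659 CPM with PBS and 2074, 2493, 2455 and 2072 CPM with exendin-4. Here too the Ex4 libraries all lay within the PBS range, with PBS 1 the lowest. Means were 2282 ± 403 and 2274 ± 232 CPM, a log2 fold change of -0.005 (SE 0.16, 95% interval -0.34 to 0.33; edgeR adjusted p = 0.997, exact permutation p = 0.943), whose sign turned in 8 of 21 settings, upper quartile scaling among them. On the linear scale the interval spans 0.79 to 1.26. Tnfrsf9 lies on the plus strand of chromosome 4 from 150914562 to 150946102, where Camta1 overlaps it on the other strand, and whether the counting used strand is not given in the sources used here. RefSeq gives it 2 promoter windows. The second is shown because it held both an AP-1 motif, 15 to 9 bases before the start, and the only kappaB motif among the members, 2 overlapping matches that together cover 43 to 33 bases before the start, each in capitals (GRCm38.p6, chr4:150927749-150928048, plus strand, 5′ to 3′).
Tnfrsf9 promoter 2: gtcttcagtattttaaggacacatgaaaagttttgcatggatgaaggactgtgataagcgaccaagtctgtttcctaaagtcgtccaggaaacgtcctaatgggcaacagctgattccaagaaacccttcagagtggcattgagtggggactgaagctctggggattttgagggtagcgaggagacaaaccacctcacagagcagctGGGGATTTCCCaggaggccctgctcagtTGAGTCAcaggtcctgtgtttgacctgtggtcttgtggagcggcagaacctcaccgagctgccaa
The kappaB motif was in 4.51% of all windows. The capitals mark letters found by search in this window and say nothing of binding.

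Tnfrsf4 encodes OX40, a costimulatory receptor of activated and regulatory T cells that signals through TRAF2 and TRAF5. It had the widest spread relative to its mean of all members, at 60.05, 294.6, 154.5 and 182.2 CPM with PBS and 568.6, 179.8, 362.4 and 369.0 CPM with exendin-4. Of the Ex4 libraries, 1, 3 and 4 were above every PBS library, and Ex4 2 lay below PBS 2 and PBS 4. The highest value was 4.91 times the lowest within PBS and 3.16 times within Ex4. Means were 172.8 ± 96.6 and 369.9 ± 159 CPM, and the log2 fold change was 1.10 (SE 0.50, 95% interval -0.07 to 2.27; edgeR adjusted p = 0.673, exact permutation p = 0.0857). It ran from 0.80 without Ex4 1 to 1.47 without PBS 2 and stayed above 0 in all 21 settings. Of 8 markers of CD4 and regulatory T cells, which carry OX40, 7 had a log2 fold change above 0, 0 passed the test and none was at 0 in all libraries. Their summed level was 847 to 1653 CPM in PBS and 1371 to 1839 CPM in Ex4, which overlap. Of 8 markers of type 17 and innate lymphoid cells 6 were above 0, 0 passed and none was at 0 in all libraries. Their sum was at 304.8, 351.0, 232.4 and 314.3 CPM in PBS and 477.2, 343.3, 501.8 and 448.5 CPM in Ex4, so Ex4 1, 3 and 4 were above every PBS library, as for Tnfrsf4. Il22, Il17a and Il23r of that list were higher in every Ex4 library than in any PBS library, and their adjusted p in edgeR ran from 0.291 to 0.636. Icos, an inducible costimulator on the CD4 and regulatory T cell list, was at 13.71, 104.1, 40.19 and 64.64 CPM with PBS and 194.4, 80.25, 174.1 and 160.4 CPM with exendin-4, in which the same 3 Ex4 libraries were above all PBS libraries. Il2ra of the same list was lower in Ex4, with a log2 fold change of -0.34 (edgeR adjusted p = 0.721). Foxp3 of that list overlapped between groups, at 0.4812 to 4.108 CPM in PBS and 1.84 to 4.327 CPM in Ex4. The defining marker Cd4 was low throughout, at 4.714 to 6.058 CPM in PBS and 4.415 to 17.1 CPM in Ex4. The part of these cells in the values of Tnfrsf4 was not tested.

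Tnfrsf18 encodes GITR, a TRAF-coupled receptor of activated and regulatory T cells. It was at 791.4, 1179, 676.0 and 801.6 CPM with PBS and 885.8, 917.1, 996.7 and 728.1 CPM with exendin-4, so the Ex4 libraries again lay inside the PBS range, of which PBS 2 was the top. The log2 fold change was 0.03 (SE 0.17, 95% interval -0.34 to 0.40; edgeR adjusted p = 0.98) and its sign turned in 7 of 21 settings. Tnfrsf4 and Tnfrsf18 are neighbours on the plus strand of chromosome 4, from 156013843 to 156016612 and from 156026164 to 156028895, 9551 bp apart with 0 protein-coding genes between them. Between mice the pair gave a Pearson r of 0.35 (exact permutation p = 0.4, adjusted 0.56 for 45 member pairs; rho 0.31, exact p = 0.46, adjusted 0.63). An antisense gene, Gm16008, overlaps Tnfrsf18. Reads from the stretch shared by Gm16008 and Tnfrsf18 cannot be told apart if strand was not used in counting.

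Tnfrsf1b encodes TNF receptor 2, the receptor for membrane-bound TNF on lymphocytes, and was the steadiest member. It was at 172.2, 220.8, 166.9 and 219.8 CPM with PBS and at 221.5, 188.2, 183.9 and 192.6 CPM with exendin-4. Apart from Ex4 1, which exceeded PBS 2 slightly, the Ex4 libraries lay inside the PBS range. The coefficient of variation was 15.1% in PBS and 8.65% in Ex4. The log2 fold change was 0.01 (SE 0.14, 95% interval -0.28 to 0.30; edgeR adjusted p = 0.99), which spans a linear fold of 0.824 to 1.23, and its sign turned in 6 of 21 settings. Its promoter window was the only one among the 9 members with a window to hold none of the motifs searched.

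**Figure D2:**
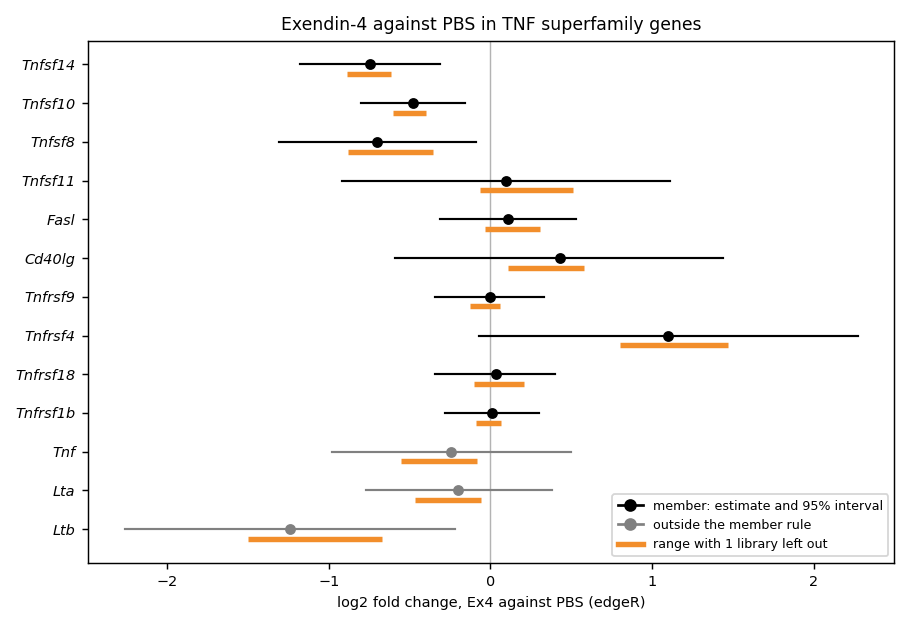
Log2 fold change of Ex4 against PBS from edgeR (horizontal axis) for the 10 members and for Tnf, Lta and Ltb; points and thin lines are estimates with 95% intervals, and thick orange lines the range with 1 library left out. Of the members, Tnfsf14, Tnfsf10 and Tnfsf8 have unadjusted intervals below 0, and no member has an adjusted p under 0.05.

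Compared with each other, the members covered a wide range of levels. On the scale of CPM per kb of annotated exon, with means over all 8 libraries ± SD, Tnfrsf9 was the highest at 837 ± 112. Tnfrsf18 followed at 572 ± 106, Fasl at 541 ± 123 and Tnfrsf4 at 199 ± 118. Below them, Tnfrsf1b was at 51.3 ± 5.82, Tnfsf10 at 34.2 ± 7.91, Tnfsf14 at 12.2 ± 3.95 and Tnfsf8 at 7.77 ± 3.64, and Cd40lg and Tnfsf11 closed the order at 1.74 ± 0.664 and 0.981 ± 0.339. The order was the same with the longest transcript as length. Neighbours in this order overlapped in range over the 8 libraries except Tnfsf10 with Tnfsf14, and Tnfsf8 with Cd40lg. Within libraries, Tnfrsf18 exceeded Fasl in 6 of 8, Tnfrsf4 exceeded Tnfrsf1b in 7 of 8 and Cd40lg exceeded Tnfsf11 in 7 of 8, and each other member exceeded its next neighbour in all 8. In the order of levels, receptors thus took 4 of the first 5 places, with Fasl as the only ligand among them. Of the summed CPM per kb of the 10 members, Tnfrsf9, Tnfrsf18 and Fasl made up 39.0 ± 4.57%, 26.1 ± 3.91% and 23.7 ± 2.18% with PBS. The share of Tnfrsf4 was 5.52 ± 2.18% with PBS and 11.6 ± 4.84% with exendin-4. Tnf itself was at 3.73 ± 1.21 CPM per kb, below 8 of the members, and Lta at 12.4 ± 3.67. Ltb was higher, at 111 ± 84.6, with a mean between those of Tnfrsf4 and Tnfrsf1b and a range of 44.7 to 310.

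**Figure D3:**
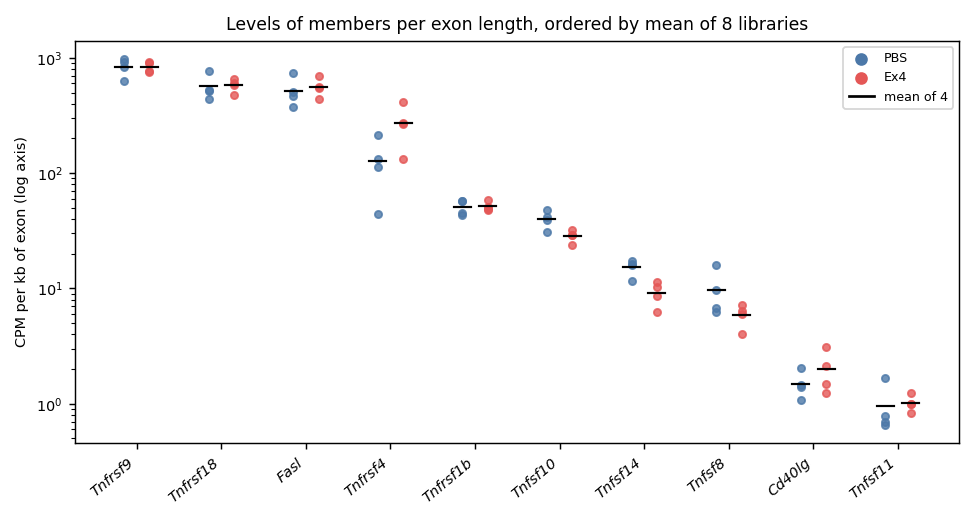
CPM per kb of exon for each member (log axis), ordered by the mean of 8 libraries; points are libraries, blue for PBS and red for Ex4, and lines the means of 4. Levels fall from 837 for Tnfrsf9 to 0.981 for Tnfsf11.

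Partners of the members were measured in the same cells, which does not cover the epithelial, stromal or myeloid cells on which many of them act. On the same per-length scale each ligand can be set beside its receptor. Tnfsf14 was at 15.3 ± 2.47 with PBS and 9.08 ± 2.21 with exendin-4, and its receptors Tnfrsf14 and Ltbr were at 1.25 ± 0.301 and 0.97 ± 0.461, and at 2.48 ± 0.628 and 1.24 ± 0.481. The ligand thus exceeded both receptors. Ltbr had a log2 fold change of -1.005 (edgeR adjusted p = 0.556), beside epithelial markers of which 13 of 13 were below 0 (summed 616 to 1336 CPM in PBS, 317 to 689 CPM in Ex4, 0 past the test, none at 0 in all libraries). With the epithelial score as a covariate the log2 fold change was -0.92 for Ltbr, -0.71 for Tnfsf14, -0.38 for Tnfsf10 and -0.84 for Tnfsf8, with edgeR adjusted p of 0.557, 0.405, 0.528 and 0.451. Btla and Cd160, which bind HVEM on lymphocytes, had log2 fold changes of 0.07 and -0.42 (edgeR adjusted p = 0.979 and 0.721), the first of either sign with 1 library left out and the second -0.18 without PBS 1.

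The death ligands had unlike receptor levels. Fas was at 122 ± 51.1 CPM per kb with PBS and 189 ± 46.8 with exendin-4, a log2 fold change of 0.63 (SE 0.33, edgeR adjusted p = 0.69) that was 0.36 without PBS 1. Tnfrsf10b, the TRAIL receptor, was at 0.992 ± 0.271 and 0.964 ± 0.13 CPM per kb, far under its ligand. Tnfrsf8, the receptor of the Tnfsf8 product, was at 3.08, 10.83, 6.6 and 9.113 CPM with PBS and at 31.37, 6.02, 15.38 and 30.08 CPM with exendin-4. As for Tnfrsf4, Ex4 1, 3 and 4 were above every PBS library while Ex4 2 was not. Its log2 fold change was 1.48 (SE 0.52, edgeR adjusted p = 0.529), and it was the only gene of the other receptors with a higher mean in Ex4 at an unadjusted p under 0.05. The remaining pairs showed receptor and ligand far apart in these cells. For Tnfrsf9, Tnfrsf4 and Tnfrsf18 the receptor exceeded its ligand: Tnfsf9 was at 22.1 ± 3.72 CPM per kb with PBS and Tnfsf4 at 0.4 ± 0.365, while Tnfsf18 had 0 to 4 counts per library and was not tested. Cd40 was at 10.7 ± 2.61 CPM per kb with PBS, above Cd40lg, and Tnfrsf11a at 0.17 ± 0.061, below Tnfsf11. Tnfsf4, Tnfsf9, Cd40, Tnfrsf10b and Tnfrsf11a had log2 fold changes between -0.15 and 0.39, and none passed the edgeR test. Among these, Tnfsf4, at 3 to 41 counts per library, was at 1.19 without PBS 2 and 0.05 without PBS 4, and the other 4 took either sign with 1 library left out.

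In edgeR the rest of the superfamily and its signalling genes gave no call, and in DESeq2, which called 83 of all genes, Tnfrsf21 did. The counts at an unadjusted p under 0.05 below stand beside 3.9% of all genes lower in Ex4 and 3.71% higher in edgeR. Of 12 other ligands 6 were tested, of which 0 passed in either direction and 1, Ltb, had a lower mean at an unadjusted p under 0.05, with a list median of -0.09. Tnf was at -0.24 (SE 0.35), and from -0.55 without Ex4 2 to -0.085 without Ex4 4. Lta was at -0.20 (SE 0.27), and from -0.46 without Ex4 2 to -0.056 without Ex4 1. Tnfsf13b, the gene of the B cell survival factor BAFF, was at 0.32 (SE 0.35), and at 0.05 without PBS 1, 0.62 without PBS 3 and 0.77 with the epithelial score as covariate. Among 24 other receptors 19 were tested and 0 passed in edgeR, and the median was 0.01, with 1 higher and 2 lower at an unadjusted p under 0.05 (Tnfrsf8, Tnfrsf21 and Ltbr). Tnfrsf21, which encodes death receptor 6, was at 14.21 ± 6.43 and 5.561 ± 1.57 CPM, a log2 fold change of -1.34 (SE 0.35) with an adjusted p of 0.344 in edgeR and 0.0267 in DESeq2. Of 22 adaptors and NF-kappaB genes all were tested and 0 passed, with 1 lower at an unadjusted p under 0.05, and the log2 fold changes ran from -0.46 to 0.25. Birc2, which encodes a ubiquitin ligase that binds TRAF2, was that gene and stood at the low end (SE 0.17, edgeR adjusted p = 0.518), and Cflar, an inhibitor of caspase 8, was at -0.30. Casp8 stood at the high end, and was at 0.15 without PBS 1. Rela was at 0.12, and at 0.03 without PBS 3.

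**Figure D4:**
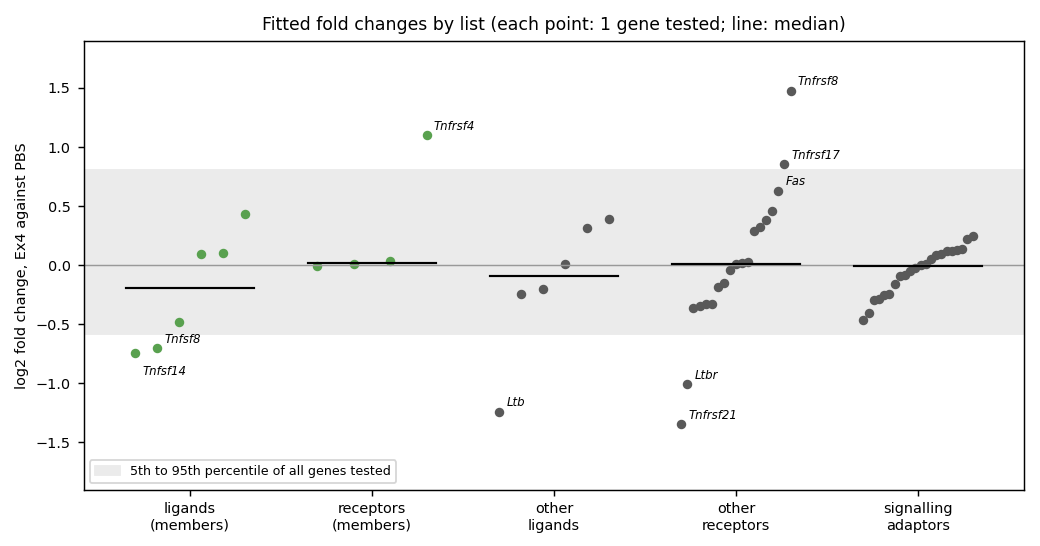
Log2 fold change of Ex4 against PBS (vertical axis, edgeR) for each tested gene of 5 lists; lines are list medians, green points members, and the grey band holds the 5th to 95th percentile of all genes tested (-0.58 to 0.81). Outside the band lie Tnfsf14, Tnfsf8 and Tnfrsf4 among the members; no gene shown has an edgeR adjusted p under 0.05.

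Relations between members from mouse to mouse were also examined. Over the 8 libraries 45 member pairs were compared by Pearson r of log2 CPM, and 7 had an unadjusted exact permutation p under 0.05, but 0 did after adjustment over the 45 pairs, by Pearson r, Spearman rho or r of deviations from group means. The largest r values were those of Tnfsf11 with Fasl (r 0.89, exact permutation p = 0.0027, adjusted 0.092; rho 0.81, exact p = 0.022, adjusted 0.21), Tnfsf11 with Tnfrsf18 (r 0.88, exact permutation p = 0.0041, adjusted 0.092; rho 0.79, exact p = 0.028, adjusted 0.21) and Fasl with Tnfrsf18 (r 0.86, exact permutation p = 0.0072, adjusted 0.11; rho 0.88, exact p = 0.0072, adjusted 0.16). PBS 2 was the highest library for all 3 genes. Without the 2 libraries farthest from the median of the first gene, r was 0.67, 0.55 and 0.91 for these pairs. Within groups the values were 0.89, 0.88 and 0.86. Against the total counts of the libraries, r was 0.66 for Tnfsf11, 0.74 for Fasl and 0.73 for Tnfrsf18, and the part of depth in their relation was not tested. Tnfsf14 and Tnfsf8 had an r above 0 that did not pass adjustment (r 0.81, exact permutation p = 0.013, adjusted 0.11; rho 0.79, exact p = 0.028, adjusted 0.21). Tnfrsf4 had r values below 0 with both, which did not pass either, of -0.85 to Tnfsf8 (exact permutation p = 0.011, adjusted 0.11; rho -0.86, exact p = 0.011, adjusted 0.16) and -0.79 to Tnfsf14 (exact permutation p = 0.017, adjusted 0.13; rho -0.86, exact p = 0.011, adjusted 0.16). Within groups these became -0.77 and -0.62. Without PBS 1 and Ex4 4 they were -0.68 and -0.88, and the pair of Tnfsf14 and Tnfsf8 fell to 0.61.

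**Figure D5:**
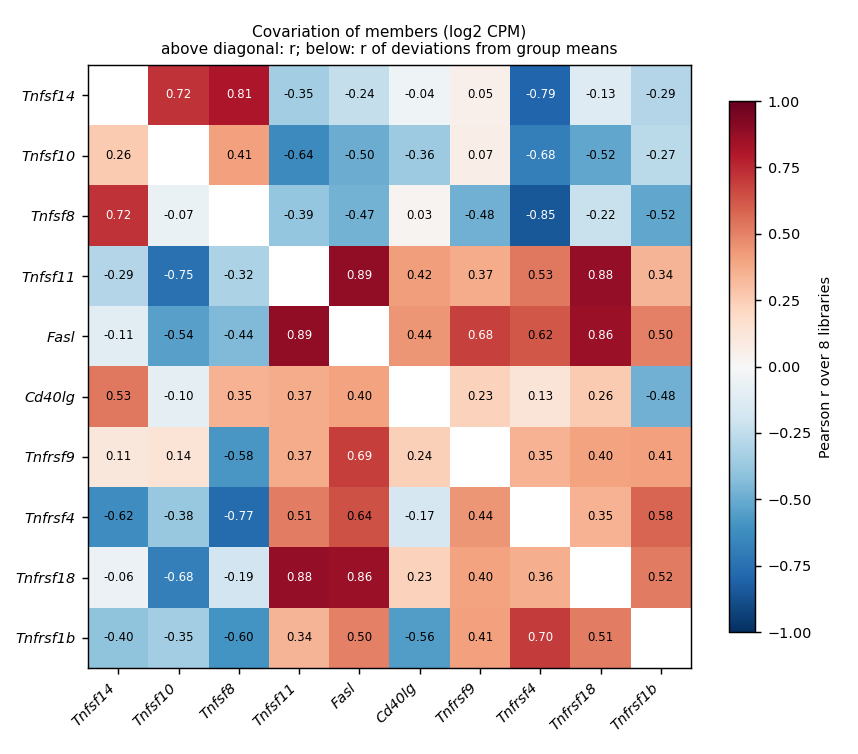
Pearson r of log2 CPM for each member pair over 8 libraries (above the diagonal) and of deviations from group means (below it), on a colour scale from -1 to 1. Tnfsf11, Fasl and Tnfrsf18 have r from 0.86 to 0.89 with each other, while Tnfrsf4 is at -0.79 and -0.85 with Tnfsf14 and Tnfsf8; 0 pairs pass adjustment.

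As a description, the genes most like 4 of the members over the 8 libraries were sought among 8266 genes with a mean of at least 10 CPM. Those most like Fasl included Rfk (Pearson r 0.972) and Ddx24 (0.966). Tnfsf14 was closest to Uap1 (0.989), Nus1 (0.973) and Rrp9 (0.972). For Tnfsf10 they were Polr2f (0.945), Set (0.942) and Inafm2 (0.942), and for Tnfrsf9 Gpx4 (0.97), Pole4 (0.952) and Polr1c (0.946). With 8 libraries and 8266 genes such values are the top of a long list, and they carry no test.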

How the data were processed

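The authors deposited whole-number gene counts, not normalised, for 8 libraries. Per the labels' protocols, RNA from sorted cells was prepared with TRIzol, and stranded TruSeq mRNA libraries were read as 200 bp pairs. STAR 2.7.9a, DESeq2 and mm10 appear in the submitters' processing notes without a role. Not given in the sources used here are the read counter, its annotation and its use of strand. Of 25230 symbols 24366 matched GENCODE M21, which gave positions and lengths. There were 0 unused columns. Groups came from the labels, and replicates differed beyond counting noise (mean chi-square per gene 22.1 to 82.7).

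Counts were tested with edgeR 4.0.16 in R 4.3.3 (filterByExpr by group, TMM, robust quasi-likelihood F test, Benjamini-Hochberg over 14691 genes), and SEs were derived from F. Log2 CPM used a prior count of 2. DESeq2 1.42.0 and limma-voom (limma 3.58.1), other scalings and filters, covariates, a replicate block and libraries left out were alternatives, and the edgeR fit was tested on simulated data. Exact permutation used all 70 assignments of single members and all 40320 orders for r. Python 3.11.15 was used for tables and figures. Promoters are RefSeq windows for 9 of 10 members.

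The members and lists were chosen with earlier results of these data known, in which Tnfsf14 and Tnfsf10 already stood out. Named genes were all members, Tnf, Lta and Ltb, partners of members, the 2 genes per direction and list with the smallest p, and the 3 genes most like 4 members. Icos, Cd4 and the other marker genes given by value come from the marker lists, and were picked after their values were seen, except the defining ones. Some results under these rules are not reported here.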

Additional observations from a re-analysis of the deposited data

Results flagged for a closer look

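In 60 groups of 4 libraries, 1 had a library set apart from its other 3. It was Tnfrsf21 in Ex4, where Ex4 4 was at 3.26 CPM and the nearest library at 6.0 CPM, a gap of 0.833 of the group's range in log2 CPM, above Dixon's 95% critical value for 4 values. Chance sets apart about 1 in 20 such groups, or 3.0 of 60.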

How the results depend on the processing

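No member was called in any of 21 alternatives, though DESeq2 on the genes of the main filter gave no adjusted p for Tnfsf11 and Cd40lg. Of 210 member values 183 kept their direction and 27 reversed, and the smallest adjusted p was 0.0693. Tnfsf14, Tnfsf10, Tnfsf8, Cd40lg and Tnfrsf4 kept their direction throughout. The count of all genes called was 2, and became 83 with DESeq2 (48 higher, 35 lower), 1 with limma-voom, 8 without a filter, 1 with a replicate block, 1 with the epithelial score, 1 without robust dispersion and 1 to 14 with each library left out (14 without PBS 2). DESeq2 on all genes with a count, chosen after seeing the data, called 70. The causes were not tested. The values showed no pairing of mice by replicate number: same-numbered libraries had r from -0.24 to 0.14, and 2 of 8 correlated best with their own number. These r values cannot exclude a shared litter, cage or day.

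Members without overlap numbered 0 with upper quartile and 0 with total count scaling, and 1 to 3 with each library left out. Tnfrsf9 reversed to 0.006 with limma-voom, 0.009 with upper quartile scaling, 0.008 with the replicate block and 0.108 with the epithelial score, and ran from -0.127 to 0.058 with 1 library left out. Tnfrsf18 reversed to -0.024 with total counts and -0.039 with the epithelial score as covariates, and ran from -0.104 to 0.206. Tnfrsf1b was -0.008 without a filter, -0.002 with DESeq2 on all genes with a count, -0.077 with the epithelial score and -0.089 to 0.063 with 1 library left out. With 1 library left out Tnfsf11 ran from -0.062 to 0.507, Fasl from -0.031 to 0.307, Btla from -0.141 to 0.442, Cd40 from -0.403 to 0.022, Tnfrsf10b from -0.231 to 0.122, Tnfrsf11a from -0.152 to 0.568 and Tnfsf9 from -0.155 to 0.114. Without both PBS 2 and Ex4 3 Btla was -0.19 and Tnfsf9 -0.027, and Cd40 was 0.142 with the epithelial score. Tnfsf9 was -0.001 with DESeq2, -0.004 with DESeq2 on all genes with a count, -0.001 with RLE scaling, -0.006 with total count scaling, -0.01 without a filter, -0.001 with the replicate block and -0.031 with total counts as a covariate. Depth limits Tnfsf11 and Cd40lg, at 22 to 113 counts per library.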
